A study of Mus musculus and Acomys cahirinus with 25 samples.

Results

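The epidermis of the laboratory mouse wound was compared between the wound center, where new hair follicles form in wound-induced hair neogenesis (WIHN), and the wound margin. The members were the 4 epidermis libraries of wild-type C57BL/6J mice at post-wound day 14 (PWD14), taken by their region labels: 2 of the wound center and 2 of the wound margin, of 25 libraries in the series. A full-thickness square wound was cut on the back at 4 weeks of age, a punch took the center and the rest was kept as margin, and epidermis was peeled from dermis by hand under a microscope. No treatment was given. The study describes the duplicates as independent, and neither it nor the labels give the number of animals behind a library. Replicate numbers name the libraries without pairing centers with margins. For the level of each gene in the tissue beneath, 7 wild-type dermis libraries of the same day were used, 5 of the center and 2 of the margin. Center dermis libraries 3 to 5 stood apart from the others in the share of reads assigned to no gene, with 6.46%, 6.31% and 6.74% against 12.4% and 10.9% in center libraries 1 and 2 and 9.21% and 11.4% in the margin, and the labels do not tell them apart. The study's sample list sets them beside its epidermal Twist1 knockouts, which it compared with 3 wild-type center dermis libraries. Its methods name wild-type Twist1+/+ mice as controls of that work. Libraries 3 to 5 may thus come from a separate experiment without margin samples.

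Epidermis is built of basal keratinocytes, which divide, and of cells above them that leave the cell cycle and assemble the cornified envelope, a shell of cross-linked proteins under the skin surface. Small proline-rich (Sprr) and late cornified envelope (Lce) proteins are substrates of that shell, and the proteases called kallikreins later cut the junctions of the outermost cells so that they are shed. Keratinocytes that close a wound switch to the keratins Krt6, Krt16 and Krt17, raise a set of Sprr and S100 genes and secrete EGF receptor ligands, and hair neogenesis later begins as placodes in the healed epidermis.

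The 4 libraries held between 35282463 and 86532134 reads on genes, against 19413261 to 28615931 in dermis. Levels are given as CPM, read counts scaled to the TMM-normalized library size, and 3 reads, the smallest amount taken as detectable, made up 0.0343 to 0.0923 CPM. Such floors cover counting error only. The 2 margin libraries differed from each other far more than the 2 center libraries, with a chi-square statistic per degree of freedom of 375 against 34.6. They also differed in sex-linked genes: Xist had 587 CPM in margin library 2 and at most 0.0308 CPM in the other 3, and the Y-linked Ddx3y was at 0 in margin library 2 and between 52.9 and 73.6 CPM in the others. Margin library 1 stood apart by the GC content of transcripts, as the plot of GC quintiles shows.

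Dermal RNA was present in every epidermis library, more so in the wound center. The median over 15 fibroblast genes of the ratio to region-matched dermis was 3.38% and 2.81% in the center libraries, and 1.59% and 0.718% in the margin libraries. With endothelial genes the ratios were 2.52% and 2.20% against 0.6003% and 0.0674%. For every gene, the fibroblast share times its level in dermis gave a predicted dermal level in center and in margin. The difference of these levels, as a percentage of the center-margin difference, is called the predicted part below. It is the part that carried-over dermal RNA would make. Where the margin share is too high for a gene that is higher in the center, its predicted part is too small. In bulk samples, fewer cells of a type and less RNA per cell cannot be told apart.

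**Figure D1:**
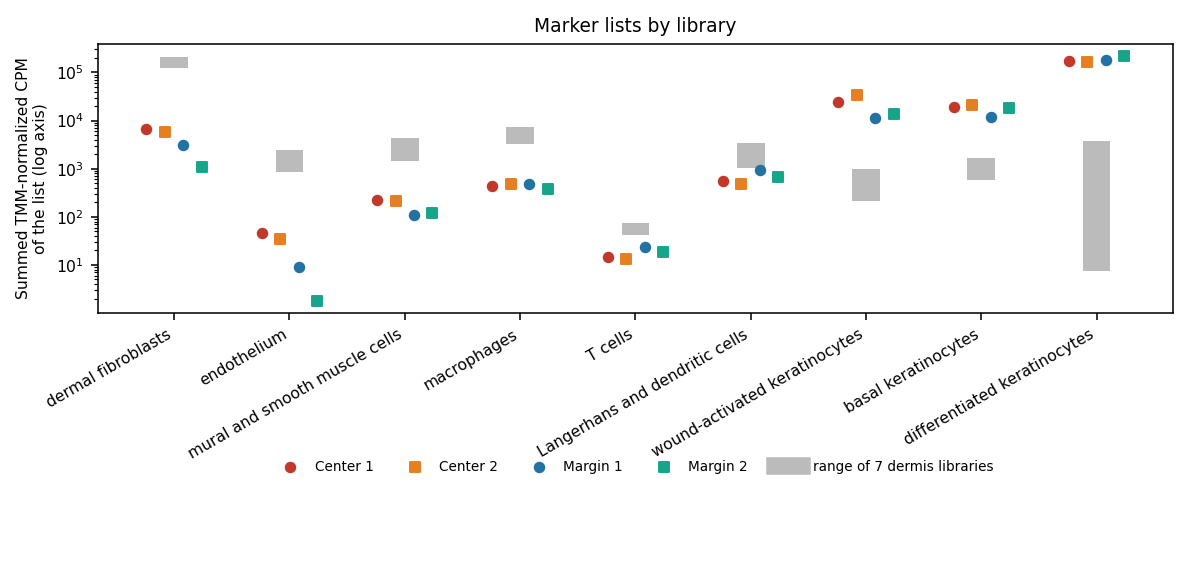
Summed TMM-normalized CPM of 9 marker lists (log axis) in each epidermis library (points) and the range over 7 wild-type dermis libraries (gray bars). Fibroblast, endothelial and mural lists were higher in both center libraries than in both margin libraries, as was the list of wound-activated keratinocytes, while the T cell and Langerhans lists were lower.

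Of 14165 genes tested between wound center and wound margin by edgeR's quasi-likelihood test, 176 (1.24%) had an FDR under 0.05, 125 of them (0.882%) higher and 51 (0.36%) lower in the center. In what follows a gene is said to have risen or fallen in the center where its FDR was under 0.05, and other genes are given by their values. At an unadjusted p under 0.05 stood 13.1% of genes as higher and 10.4% as lower, and both center libraries lay above both margin libraries for 32.1% of genes and below them for 27.3%. Errors after ± are standard errors of the log2 fold change with 2 libraries a group. The number of calls depended on how the test estimates spread: the quasi-likelihood estimate of edgeR 3 left 0 calls and 2893 genes at an unadjusted p under 0.05, while DESeq2 called 1511. Of the 51 genes that fell, 35 (68.6%) were higher in both margin libraries than in every dermis library, as were 20.6% of all tested genes with a lower mean in the center. Of the 125 that rose, 42 (33.6%) were above every dermis library in both center libraries, as were 20.7% of all with a higher mean there, and for 32 the predicted part was 50% or more of the difference. When the predicted dermal counts were subtracted before the test, 59 of 110 risen genes and 33 of 51 fallen genes that could still be tested kept an FDR under 0.05. Of the genes described below, Sprr1a, Plat, Gprc5a, Dynap, Sh2d5, Cadm4, Kdelr3, Oaf, Isg15, Oasl1, Pdgfrb and Acta2 among the risen and Lce6a, Krt73, Krt77, Cd207, Skint9, Maob, Prkcq, Cacna1e, Rad54b and Erv3 among the fallen did not keep it, with FDRs between 0.0507 for Cd207 and 0.148 for Acta2, and Tagln could no longer be tested. The study's tables of center-against-margin genes held 33 of the risen and 2 of the fallen genes, so that 141 of the 176 are outside them.

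The genes of the cornified envelope split by subfamily. On chromosome 3, 37 Sprr and Lce genes were tested, of which 6 rose and 12 fell. All 14 Lce1 genes were lower in the center, 11 of them with an FDR under 0.05. Their log2 fold changes lay between -3.33 and -1.90 (median -2.36). All 6 Lce3 genes were higher, 4 of them with an FDR under 0.05, and lay between 1.56 and 3.85 (median 2.13). The summed Lce1 level was 3204 and 3119 CPM in the center libraries and 16949 and 15080 CPM in the margin libraries, and that of Lce3 was 435 and 553 CPM against 132 and 136 CPM. For neither subfamily did the groups overlap in any member. Both subfamilies kept their direction without margin library 1, with medians of -2.29 for Lce1 and 2.09 for Lce3, and without margin library 2, with medians of -2.37 and 2.24.

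The opposed genes are neighbors. In the GRCm38 annotation of RefSeq, the Lce1 genes lie on chromosome 3 between positions 92646532 and 93019061, and the Lce3 genes sit inside that span, between 92925287 and 92993426, with Lce1l before them and Lce1m after them. Lce1k, from 92806291 to 92807891, had 57.9 and 49.1 CPM in the center libraries and 542 and 538 CPM in the margin libraries (log2 fold change -3.33 ± 0.23, FDR = 0.0367). Its highest level in dermis was 8.07 CPM. Lce3b, from 92932979 to 92934096, had 15.9 and 25.8 CPM in the center and 1.6 and 1.35 CPM in the margin (log2 fold change 3.85 ± 0.44, FDR = 0.0369), and was at 0 in every dermis library. Lce6a, on the other side of the Lce1 genes, fell by 2.52 on the log2 scale. Reads of such close relatives can be split or set aside by the counting, so that single members are less certain than the subfamily sums.

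Among the 16 Sprr genes, next along the chromosome, 15 were higher in the center, 11 with an unadjusted p under 0.05, and 2 rose. Sprr1a had 2001 and 3588 CPM in the center and 482 and 467 CPM in the margin (log2 fold change 2.56 ± 0.37, FDR = 0.0455). Sprr2k rose as well, from 4.12 and 2.27 CPM in the margin to 24.9 and 42.6 CPM in the center. Sprr2i had the largest log2 fold change of the family, 4.86, with 94.4 and 169 CPM against 9.73 and 1.03 CPM, and an FDR of 0.0780. Sprr2a1 was the 1 member with a lower mean, at 6.28 and 7.91 CPM against 14.7 and 2.69 CPM, values that overlap.

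**Figure D2:**
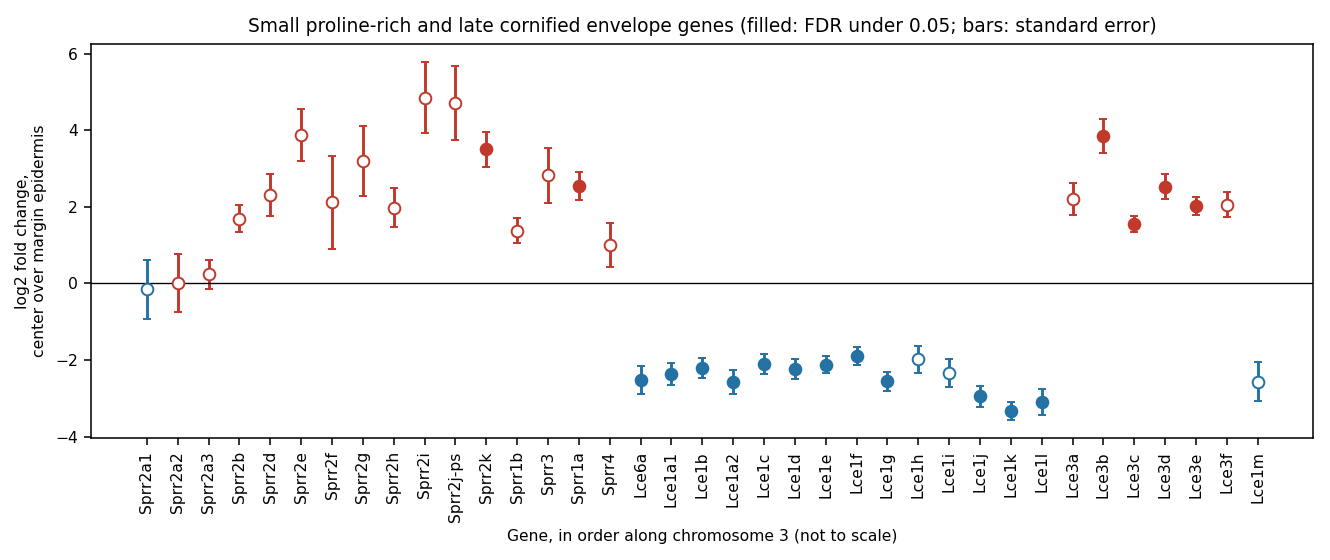
Log2 fold change of center over margin epidermis for 37 Sprr and Lce genes in their order along chromosome 3 (spacing not to scale), with standard errors as bars and filled points for an FDR under 0.05. The Lce3 genes and 15 of 16 Sprr genes lie above 0, and Sprr2a1, the Lce1 genes and Lce6a lie below it, and Lce3a to Lce3f stand between Lce1l and Lce1m.

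The starts of 3 of these genes are shown because they lie in the same complex and moved in opposite directions. They are the 250 bases upstream of the start in RefSeq on GRCm38.p6, 5′ to 3′ on the strand of the gene, with capitals at each TGANTCA, the site of AP-1, the dimer of Fos and Jun proteins. Lce1k is read from chr3:92807892-92808141 on the minus strand, Lce3b from chr3:92932729-92932978 on the plus strand and Sprr1a from chr3:92485882-92486131 on the minus strand.
Lce1k: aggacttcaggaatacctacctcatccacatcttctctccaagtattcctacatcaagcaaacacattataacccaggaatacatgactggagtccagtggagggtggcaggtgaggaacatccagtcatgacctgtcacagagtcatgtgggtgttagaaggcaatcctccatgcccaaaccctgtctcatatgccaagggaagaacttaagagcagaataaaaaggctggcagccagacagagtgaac
Lce3b: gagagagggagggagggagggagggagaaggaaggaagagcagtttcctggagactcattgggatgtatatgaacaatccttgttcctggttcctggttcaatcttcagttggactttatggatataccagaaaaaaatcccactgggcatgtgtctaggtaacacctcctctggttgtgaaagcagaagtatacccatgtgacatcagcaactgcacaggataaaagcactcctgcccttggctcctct
Sprr1a: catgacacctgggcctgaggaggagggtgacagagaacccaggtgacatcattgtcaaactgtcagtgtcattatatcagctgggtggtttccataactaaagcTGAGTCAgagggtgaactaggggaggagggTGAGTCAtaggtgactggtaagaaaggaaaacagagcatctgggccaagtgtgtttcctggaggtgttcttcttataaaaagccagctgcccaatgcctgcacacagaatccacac
Sprr1a held 2 such sites, beginning 146 and 116 bases before its start, and neither Lce gene held any. None of the 13 Lce1 and 6 Lce3 starts in the table held the motif. The motif reads the same on both strands in its fixed bases. Over all genes that rose in the center, 6 of the 91 with a start in the table held it, or 6.59%, and over those that fell 3 of 44, or 6.82%, near the 6.87% of all 27025 starts and the 4.87% of the 10732 tested genes matched. The Lce1 starts were more like each other than like Lce3 starts: the longest run of identical bases shared by a pair had a median of 13 bases within Lce1, 12 within Lce3 and 8 between them.

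Kallikreins and their inhibitors rose in part. Of 14 tested, 5 rose and 0 fell, and another 4 were higher at an unadjusted p under 0.05. Klk14 had 87.6 and 131 CPM in the center and 4.46 and 2.21 CPM in the margin (log2 fold change 5.15 ± 0.43, FDR = 0.0367), and was at 0 in all 7 dermis libraries. Klk10, Klk12 and Klk13 rose by log2 fold changes of 3.21, 3.53 and 2.15. Klk7 and Klk5, the kallikreins most often named in shedding, did not pass: Klk7 had 2919 and 3383 CPM in the center and 6977 and 2860 CPM in the margin, and Klk5 had 709 and 712 CPM against 549 and 627 CPM. Their inhibitor Spink5 was likewise without a call, at 1653 and 1864 CPM against 2155 and 1827 CPM.

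Slpi, a secreted inhibitor of neutrophil elastase made by epithelia, changed most among these. It had 55.0 and 89.1 CPM in the center libraries, 0 in margin library 1 and 0.343 CPM in margin library 2 (log2 fold change 8.19 ± 0.65, FDR = 0.0367). Dermis held at most 27.0 CPM of Slpi, less than either center library, and the predicted part was 0.281% of the difference. The 10 neutrophil genes summed to 15.4 and 23.99 CPM in the center and 72.3 and 24.3 CPM in the margin, nearly all of it Cxcr2, with 14.3 and 22.9 CPM against 70.9 and 23.98 CPM. Csf3r had 0.964 and 0.461 CPM against 0 and 0.206 CPM. Ly6g, Retnlg, Ngp and Elane were at 0 in all 4 epidermis libraries, and Ngp and Elane also in every dermis library.

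The list of wound-activated keratinocytes was higher in the center. Of 16 genes, 13 were higher at an unadjusted p under 0.05 and none was lower, Slpi and Sprr1a rose, and the median log2 fold change was 1.87, beside -0.02 over all tested genes. The summed level was 24291 and 34381 CPM in the center libraries and 11347 and 13532 CPM in the margin libraries. The antimicrobial S100a9 had 145 and 222 CPM against 23.2 and 7.55 CPM, with an FDR of 0.0545. The wound keratins differed less: Krt17 had 364 and 656 CPM against 142 and 223 CPM (log2 fold change 1.48, FDR = 0.118), and Krt16 had 5408 and 8268 CPM against 2988 and 4683 CPM (0.83, FDR = 0.281). Basal and differentiated keratinocytes showed no such shift as lists, with medians of 0.02 and -0.20.

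Through EGF receptor ligands keratinocytes drive their own migration and growth. Of the 8 genes of this list, 5 were higher at an unadjusted p under 0.05, and none of them had an FDR under 0.05. Nrg1, counted among these 5, binds related receptors rather than the EGF receptor itself. It had 9.05 and 16.6 CPM in the center and 0.4925 and 1.30 CPM in the margin (log2 fold change 3.61, FDR = 0.0554). Hbegf had 80.1 and 130 CPM against 30.8 and 8.74 CPM, a log2 fold change of 2.47 that was 3.59 without margin library 1 and 1.79 without margin library 2. Among 14 tested cytokines and chemokines, 5 were higher and 2 lower at the unadjusted threshold. Il24, a cytokine of the IL-10 family, had 15.2 and 24.04 CPM against 1.42 and 0.0458 CPM, with an FDR of 0.0553, and was at 0 in dermis. Il33 had 275 and 501 CPM against 93.0 and 41.2 CPM. Il1a, which keratinocytes store and release on injury, went the other way, with 25.7 and 26.8 CPM in the center and 53.5 and 68.3 CPM in the margin (log2 fold change -1.22, FDR = 0.0780).

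Within the list of AP-1 and immediate early genes, Junb rose, from 59.2 and 47.9 CPM in the margin to 220 and 234 CPM in the center, and no other of the 14 did. Fosl1, a Fos relative, had 53.4 and 95.4 CPM against 13.9 and 6.51 CPM (log2 fold change 2.93, FDR = 0.0583). Fos itself had 93.5 and 120 CPM in the center and 80.1 and 8.02 CPM in the margin, with margin library 1 near the center libraries and margin library 2 far below. With offsets for transcript length and GC content, the log2 fold change of Junb was 0.91 instead of 2.09 and its call was lost (FDR = 0.278). Of 19 genes of migration, 9 were higher at the unadjusted threshold and 3 of them rose, among them Plat, of the plasminogen system, and Itga5, the fibronectin-binding integrin subunit. For Plat and Itga5 the predicted part was 61.3% and 17.6% of the difference.

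Several of the largest increases were in genes of other kinds, none of them in the study's tables. Gprc5a, a retinoic acid-induced receptor, had 8.06 and 14.1 CPM in the center and 0 reads in both margin libraries, which makes it at least 119.8-fold higher. Stra6, the receptor that takes up retinol, had 17.4 and 33.7 CPM against 0 and 0.275 CPM (log2 fold change 7.0 ± 0.76, FDR = 0.0367), with 12.9 to 157 CPM in dermis and a predicted part of 7.21%. Arc, an immediate early gene known from neurons, had 76.8 and 128 CPM against 3.97 and 0.881 CPM, and dermis held at most 3.97 CPM.

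Car2, a carbonic anhydrase, rose from 2.22 and 1.49 CPM in the margin to 45.2 and 78.6 CPM in the center. 2300002M23Rik rose from 0 and 0.206 CPM to 12.2 and 14.5 CPM and was at 0 in every dermis library, and Dynap rose from 0 and 0.137 CPM to 3.35 and 6.34 CPM. Tmem45b rose by a log2 fold change of 4.93, with 18.5 and 28.5 CPM against 0.739 and 0.778 CPM, and was at 0 in all 5 center dermis libraries. Sh2d5 rose by 4.11 on the same scale, to 15.3 and 22.3 CPM. For these genes both center libraries lay above every dermis library.

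Other increases were in genes that dermis expressed at a like or higher level. Cadm4, a cell adhesion molecule, had 6.23 and 9.42 CPM in the center, 0.0308 and 0.0458 CPM in the margin and 12.7 to 46.9 CPM in dermis. Gfpt2, of the hexosamine pathway, had 15.6 and 22.9 CPM against 0 and 0.275 CPM, with 14.95 to 36.9 CPM in dermis, and Hs3st1 had 8.17 and 16.4 CPM against 0.585 and 0.160 CPM, with 11.1 to 35.3 CPM in dermis. The predicted part for these 3 genes was 1.20%, 1.95% and 4.57%. Cadm4 in both margin libraries and Gfpt2 in margin library 1 lay below the level that the fibroblast share of the margin would give. Their predicted parts may therefore be too small. The dermis-rich Kdelr3 and Oaf had larger predicted parts, 39.0% and 21.3%. Kdelr3 had 11.7 and 13.2 CPM in the center and 0.862 and 0.869 CPM in the margin, and Oaf had 15.6 and 23.3 CPM against 0.923 and 0.652 CPM.

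Several structural genes of epidermis fell in the center. Flg2, a filaggrin relative of the outer layers, had 260 and 261 CPM in the center and 1777 and 1537 CPM in the margin (log2 fold change -2.67 ± 0.25, FDR = 0.0367), and it was the 1 called gene among 17 of differentiated keratinocytes. Krt77, a keratin of sweat ducts and upper epidermis, had 1.20 and 1.72 CPM against 37.9 and 17.2 CPM. Krt24 had 0.950 and 1.03 CPM in the center and 13.8 and 16.0 CPM in the margin (log2 fold change -3.92 ± 0.39, FDR = 0.0367), with at most 1.56 CPM in dermis. By contrast, Krt1 and Krt10, the keratins of the differentiated layers, differed by -0.34 (FDR = 0.786) and -0.28 (FDR = 0.813) on the log2 scale.

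Keratins of the inner root sheath, the layer that molds the growing hair, were lower in the center. Krt73 fell, with 0.0140 and 0.107 CPM in the center and 3.48 and 6.18 CPM in the margin (log2 fold change -6.48 ± 0.89, FDR = 0.0367). Krt71 had 0.0279 CPM and 0 in the center and 1.05 and 16.8 CPM in the margin, and Krt25 had 0.0698 and 0.248 CPM against 0.431 and 13.1 CPM. Dermis held up to 51.5 CPM of Krt73, 163 CPM of Krt71 and 128 CPM of Krt25. After dermal subtraction Krt73 had an FDR of 0.0528, none of the 5 genes tested in this list was called, and 2 instead of 4 were lower at the unadjusted threshold. For Krt71 and Krt25 margin library 2 held most of the signal. Tchh, also of this list, was higher in the center, with 44.0 and 48.1 CPM against 9.33 and 23.3 CPM and an FDR of 0.139. Hair shaft keratins were low in all 4 libraries. Krt31, Krt33a, Krt34 and Krt35 were at 0 in both center libraries, and Krt35 had 1.05 and 0.480 CPM in the margin. Krt31, Krt33a and Krt34 were at 0 in margin library 1 too. Krt82 went the other way, with 1.215 and 0.674 CPM in the center against 0 and 0.137 CPM in the margin. Of the 9 tested genes of hair shaft and matrix, 4 were higher and 5 lower in the center.

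Cd207, which encodes langerin, the defining gene of Langerhans cells, fell. It had 3.69 and 3.12 CPM in the center and 43.0 and 23.2 CPM in the margin (log2 fold change -3.26 ± 0.41, FDR = 0.0390), and dermis held at most 6.17 CPM. H2-Ab1, a class II antigen presentation gene, had 156 and 140 CPM against 454 and 268 CPM (FDR = 0.107), whereas Cd74 had 212 and 184 CPM against 257 and 225 CPM (FDR = 0.451). Itgax and H2-Eb1, of the same list, had higher means in the center without a call, with 10.4 and 9.33 CPM against 7.26 and 6.6 CPM and with 39.8 and 35.2 CPM against 31.9 and 3.09 CPM. After dermal subtraction Cd207 had an FDR of 0.0507. Of the 9 genes of this list 1 fell and 1 more was lower at the unadjusted threshold. Among T cell genes, Cd3e was lower at that threshold, with 2.25 and 1.72 CPM against 9.11 and 4.90 CPM, and the other 10 had no call.

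The Skint genes, a family of keratinocyte membrane proteins of which Skint1 is needed for the T cells that live in mouse epidermis, were noticed among the fallen genes and were not a list chosen earlier. Of 11 tested, 10 were lower in the center, 9 at an unadjusted p under 0.05, and Skint9 and Skint11 fell. Their summed level was 348 and 306 CPM in the center libraries and 894 and 1005 CPM in the margin libraries. Skint9 had 92.9 and 69.4 CPM against 282 and 384 CPM (log2 fold change -2.04 ± 0.27, FDR = 0.0418). Skint1 had 17.99 and 16.7 CPM against 42.8 and 28.5 CPM, with an FDR of 0.132. The family's median log2 fold change was -1.29 without offsets and -0.95 with offsets for length and GC content, a smaller difference.

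Further genes that fell had no shared list. Bbox1, the last enzyme of carnitine synthesis, had 9.29 and 9.12 CPM in the center and 97.3 and 78.3 CPM in the margin (log2 fold change -3.25 ± 0.25, FDR = 0.0367). Maob, a monoamine oxidase, had 0.698 and 0.515 CPM against 12.7 and 7.42 CPM. Hspa12a had 2.65 and 3.71 CPM in the center and 27.9 and 35.2 CPM in the margin.

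Prkcq, protein kinase C theta, had 0.559 and 0.178 CPM in the center and 11.1 and 7.05 CPM in the margin, and it fell as well. Cttnbp2 had 0.279 and 0.550 CPM against 8.0 and 9.73 CPM, Cacna1e had 0.0559 and 0.0710 CPM against 2.71 and 2.52 CPM, and Rad54b, a DNA repair gene, had 0.265 and 0.107 CPM against 3.45 and 3.87 CPM. Erv3 had 0.531 and 0.390 CPM against 6.53 and 7.30 CPM. All of them kept a log2 fold change under -3 with either margin library left out.

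Transcription factors of epidermis moved in both directions. Of 24 tested, Pax9 and Pitx1 rose and Zbtb16 fell, and at the unadjusted threshold 7 were higher and 8 lower. These 3 genes stand in the study's tables, as do 12 members of the list in all, so that the list is not independent evidence of direction. Zbtb16, known as PLZF, had 0.112 and 0.107 CPM in the center and 4.0 and 2.85 CPM in the margin (log2 fold change -4.89 ± 0.70, FDR = 0.0369). The 3 nuclear factor I genes of the list were lower at the unadjusted threshold: Nfix had 73.8 and 65.4 CPM against 137 and 170 CPM, Nfia 33.0 and 31.0 CPM against 68.4 and 58.4 CPM, and Nfib 13.5 and 13.2 CPM against 22.7 and 30.8 CPM. Tbx3, which was higher, and Foxc1 were also dermal genes, with up to 63.0 and 8.79 CPM there. Genes of placodes and the hedgehog pathway gave 0 calls among 12 tested, and 1, Cdh3, at the unadjusted threshold. Shh itself was at 0 in 3 libraries and at 0.252 CPM in margin library 2.

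Cell cycle genes were lower in the center. All 22 had negative log2 fold changes, 11 with an unadjusted p under 0.05, and none had an FDR under 0.05; the median was -1.42. Mki67, a marker of cycling cells, had 27.0 and 28.3 CPM in the center and 73.6 and 150 CPM in the margin (log2 fold change -2.02, FDR = 0.0715), and Top2a had 23.7 and 28.1 CPM against 61.0 and 94.8 CPM. The summed level was 209 and 211 CPM against 356 and 703 CPM. Much of the contrast lay with margin library 2, since the median was -1.91 without margin library 1 and -0.30 without margin library 2. Mki67, Top2a and Mcm4 kept both margin libraries above both center libraries, while Cdk1, Mcm6 and E2f1 had values in margin library 1 within or below the center.

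Circadian and ciliary genes differed little as lists, with medians of -0.30 over 16 clock genes and -0.43 over 14 intraflagellar transport genes. Nr1d1, a repressor of the clock, had 93.8 and 90.6 CPM in the center and 215 and 194 CPM in the margin (log2 fold change -1.15, FDR = 0.0639). Hlf had 11.4 and 6.62 CPM against 50.4 and 28.8 CPM. The core genes Clock and Arntl had log2 fold changes of -0.29 and -0.31, without a call. Time of day of collection is not given in the sources used here.

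Of metabolic lists, glycolysis and hypoxia had 9 of 19 genes higher at the unadjusted threshold and 0 called, with a median of 0.85. With offsets for length and GC content the median was 0.48, and 7 were higher at that threshold. Negative log2 fold changes stood in 6 of the 19, none at that threshold. Bnip3 was among them, with 134 and 164 CPM in the center against 497 and 178 CPM in the margin. The glucose transporter Slc2a1 had 353 and 377 CPM against 147 and 167 CPM (log2 fold change 1.22, FDR = 0.0627). In cholesterol synthesis 6 of 18 were higher and 1 lower at that threshold, where Hmgcs1, of the early steps, was the lower gene, with 256 and 283 CPM against 437 and 401 CPM. Of 79 ribosomal protein genes 18 were higher and 2 lower, and of 84 genes of oxidative phosphorylation 4 and 2. Genes with many near-identical copies are uncertain here: Gapdh had 0.800 to 2.45 CPM in these libraries, and Rps14, with 142 and 129 CPM against 6.93 and 25.2 CPM, may have lost reads to its copies to a different degree in each.

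**Figure D3:**
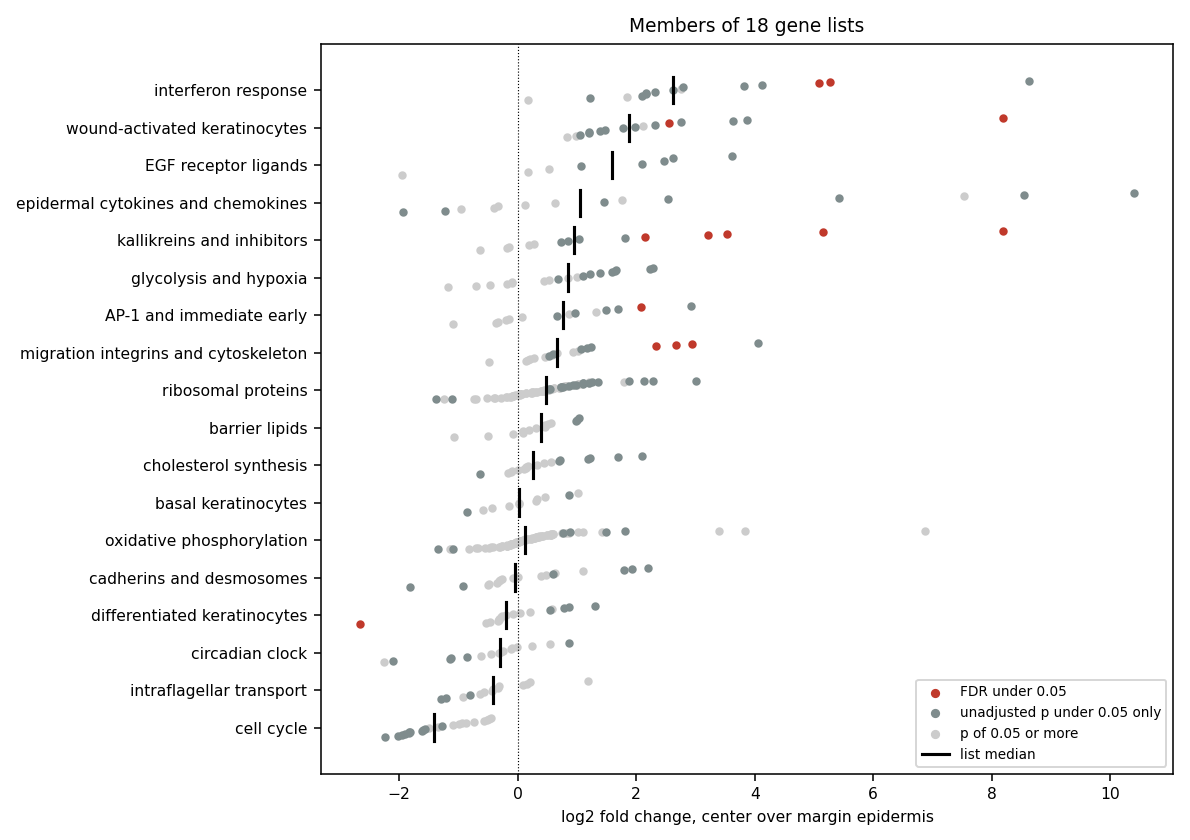
Log2 fold change of center over margin epidermis for each tested member of 18 gene lists (points, colored by the test) with the list median (black bar). Medians run from 2.63 for interferon response and 1.87 for wound-activated keratinocytes to -1.42 for cell cycle.

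Lists of dermal cell types were higher in the center. The dermal share is itself a median over the fibroblast genes, so that this list, the share and the predicted parts of its members are not independent of each other. The study's tables hold 12 of the fibroblast genes. Of 15 fibroblast genes 10 were higher at the unadjusted threshold and Col5a1 and Pdgfrb rose, with predicted parts of 58.2% and 76.3%. The summed level of the list was 6831 and 5813 CPM in the center, 3074 and 1061 CPM in the margin and at least 122700 CPM in dermis. After dermal subtraction Col5a1 stayed called (FDR = 0.0287) and Pdgfrb did not (FDR = 0.0709). Col5a1 had 241 and 211 CPM against 33.2 and 18.2 CPM. Of 11 endothelial genes 10 were higher at the unadjusted threshold and none was called, with sums of 46.0 and 34.5 CPM against 9.11 and 1.80 CPM. After dermal subtraction 2 endothelial genes were higher at that threshold and none was called. Acta2 and Tagln, of smooth muscle and myofibroblasts, rose, with predicted parts of 73.0% and 122%, and the other 6 mural genes were not called. After dermal subtraction none of the mural genes was called, and Acta2 had an FDR of 0.148.

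Not every gene that is high in dermis moved in this way. Thy1 had 47.3 and 42.6 CPM in the center and 52.2 and 61.0 CPM in the margin, with 284 to 1115 CPM in dermis. In every epidermis library it was above the level that the dermal share would give. Thy1 thus does not report carried-over dermal RNA alone, and the source of the rest was not tested. Lum had 18.7 and 18.2 CPM against 24.9 and 1.90 CPM, with the margin libraries on either side of the center. Macrophage genes summed to 433 and 476 CPM against 484 and 381 CPM, and 5 of 12 were higher at the unadjusted threshold. The complement gene C1qc had 7.42 and 7.35 CPM against 2.28 and 1.58 CPM. Fabp4 rose from 72.7 and 35.2 CPM to 408 and 544 CPM, above every dermis library, with a predicted part of 0.614%. Of the other fat cell genes, Lipe had 51.0 and 55.4 CPM in the center and 19.5 and 38.9 CPM in the margin (FDR = 0.221). Adipoq, Plin1, Plin4, Cidec, Lep, Retn and Cfd were at 0 in all 4 libraries, and they were low in dermis too, with at most 4.07 CPM, for Retn, and 0 for Lep.

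Interferon response genes were higher in 12 of 15 at the unadjusted threshold, with a median of 2.63, and Isg15 and Oasl1 rose. Isg15, a ubiquitin-like protein, had 6.79 and 4.69 CPM in the center and 0.308 and 0.114 CPM in the margin (log2 fold change 5.08 ± 0.68, FDR = 0.0367). Oasl1 had 3.67 and 4.14 CPM against 0 and 0.137 CPM. Dermis held more of the whole list, 273 to 1997 CPM against 236 and 194 CPM in the center and 134 and 92.9 CPM in the margin, and the predicted parts for Isg15 and Oasl1 were 22.4% and 9.68%. After dermal subtraction neither was called, with FDRs of 0.0788 and 0.0549, and 11 of the 15 were higher at the unadjusted threshold.

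Among the remaining lists, Krt24 was the 1 call among 12 bulge and outer root sheath genes. Sebaceous gland genes (10 tested), hair shaft and matrix genes (9), Schwann cell genes (7), skeletal muscle genes (5), melanocyte genes (4), red blood cell genes (4), Merkel cell genes (2), the mast cell gene (1), keratin-associated proteins (2) and histones (13) had 0 calls. Tyrp1, of pigment synthesis, was at 0 in both center libraries and at 0.739 and 0.847 CPM in the margin, while Mitf, the melanocyte regulator, had 1.55 and 1.56 CPM against 3.51 and 3.44 CPM. Of 11 clade B serpins, 2 were higher and 3 lower at the unadjusted threshold: Serpinb2 had 562 and 784 CPM against 380 and 223 CPM, and Serpinb7 had 148 and 122 CPM against 245 and 299 CPM. Of 18 cadherin and desmosome genes, 4 were higher and 2 lower at that threshold, and the desmosomal cadherins Dsc2 and Dsg2 lay on opposite sides, with 49.6 and 76.1 CPM against 25.2 and 12.1 CPM and with 32.5 and 28.2 CPM against 76.0 and 39.9 CPM. Of 14 barrier lipid genes 3 were higher at that threshold, and of 244 solute carriers 2 rose and 0 fell, Slc20a1 and Slc25a25. Over all tested genes 13.1% were higher and 10.4% lower at that threshold, and 0.882% rose and 0.36% fell.

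The center-margin contrast itself was compared with that of dermis as an interaction term. The fit pooled all 5 center dermis libraries and held no term for libraries 3 to 5 as a set. Both margin dermis libraries were like center libraries 1 and 2 in the share of reads without a gene. Of 15845 genes, 512 (3.23%) had an FDR under 0.05 for the difference, 488 (3.08%) with a contrast that was more positive in epidermis and 24 (0.151%) with one more negative. At an unadjusted p under 0.05 stood 11.3% as more positive and 2.49% as more negative. Of the 125 risen genes 62 were among the 512, each more positive in epidermis. The same epidermal contrast entered both the call and the difference, so that neither this count nor its direction is independent of the call. Without center dermis libraries 3 to 5, a choice made after seeing the data, 540 genes passed, 365 of them shared with the 512, and 60 of the 62 did. For Gfpt2 the dermal log2 fold change was -0.43, and the difference between tissues was 7.20 on that scale. For Kdelr3 and Oaf the dermal values were 0.13 and 0.31 and the differences 3.85 and 4.51.

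Of the 51 fallen genes 18 passed, 4 with a more negative contrast in epidermis and 14 with one that was more negative in dermis. Without center dermis libraries 3 to 5, 15 of the 18 passed, and Krt77, Lce1j and Lce1k did not, with FDRs of 0.0848, 0.0976 and 0.0632. Flg2 and Lce1e were at 0 in all 5 center dermis libraries and between 67.7 and 111 CPM, and between 12.6 and 16.4 CPM, in the margin dermis. The list of differentiated keratinocytes summed to between 7.43 and 3780 CPM over the dermis libraries, so that dermis held keratinocyte RNA in very uneven amounts. Whether such RNA makes the dermal contrasts of these genes was not tested. Hspa12a fell more in epidermis than in dermis, by 2.11 on the log2 scale (FDR = 0.0495), with 9.08 to 17.9 CPM in center dermis and 26.0 to 28.8 CPM in margin dermis. The dermal libraries were single-end and the epidermal libraries paired-end, so that tissue and read layout cannot be told apart in levels, whereas each contrast lies within 1 layout.

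The log2 fold change ran with the GC content of transcripts. Over genes in quintiles of GC content, the median log2 fold change was -0.39 in the lowest quintile, then -0.21, -0.04 and 0.20, and 0.52 in the highest. Margin library 1 deviated most: its median deviation from the mean of the 4 libraries was 0.357 on the log2 scale in the lowest quintile and -0.62 in the highest, while margin library 2 had -0.0162 and 0.0443. Without margin library 1 the medians of the lowest and highest quintile were -0.17 and 0.28, and without margin library 2 they were -0.53 and 1.17. By transcript length the medians ran from 0.19 in the shortest quintile to -0.15 in the longest. With offsets for length and GC content 214 genes were called, 123 higher and 91 lower, and 125 of the 176 were among them. Of the genes described above, Sprr1a, Junb, Itga5, Arc, Sh2d5, Skint9, Skint11, Rad54b and Col5a1 did not keep an FDR under 0.05 with them, with values from 0.0506 for Rad54b to 0.278 for Junb. Zinc finger genes, of which 43 of 310 were lower and 6 higher at the unadjusted threshold, had 31 lower and 5 higher with these offsets. Over all 14165 genes, 1468 were lower and 1860 higher at that threshold, and 1688 and 1669 with the offsets.

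**Figure D4:**
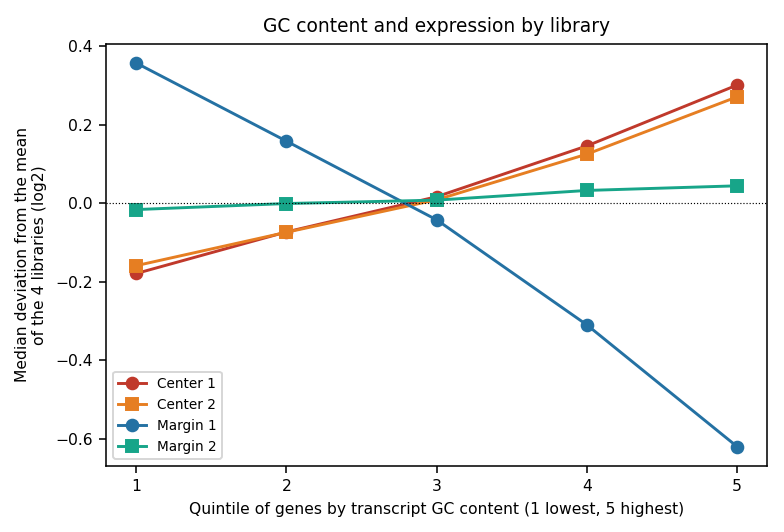
Median deviation of each library's log2 expression from the mean of the 4 epidermis libraries (vertical axis) in quintiles of genes by transcript GC content (horizontal axis, lowest to highest). Margin library 1 runs from 0.357 down to -0.62, the center libraries rise, and margin library 2 stays near 0.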

How the data were processed

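RNA of hand-separated wound epidermis and dermis was sequenced, strand-specific and paired-end for epidermis and single-end for dermis. The authors aligned reads with STAR to mm10 and counted them per RefSeq gene with htseq-count, and deposited the raw count of each of 24500 symbols per library. The submitters' processing notes name STAR 2.4.1d and HTSeq 0.6.0, and the STAR version in the methods differs. Reads set aside as low quality by htseq-count made up 23.35 to 29.8% in epidermis, which touches genes with near-identical copies. The summary lines were left out of library sizes.

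Groups came from the region labels. From the counts, edgeR 4.0.16 in R 4.3.3 gave the tests (TMM scaling, filterByExpr, quasi-likelihood F test with the estimator new in edgeR 4, Benjamini-Hochberg adjustment), first over the 4 epidermis libraries, then with dermis for the interaction. limma 3.58.1 and DESeq2 1.42.0 served the alternatives, and Python 3.11.15 with pandas 2.3.3, numpy 2.4.6 and matplotlib 3.10.9 the summaries and plots. The scripts were tested on simulated counts with known changes. Precision is set by 2 libraries a group, with a biological coefficient of variation of 0.4379.

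A first set of named genes was past an FDR of 0.05 with non-overlapping groups and 1 CPM or more in the higher group. Outside the study's tables it held the 12 with the largest changes per direction and the 8 such genes above every dermis library. It also held the 2 with the lowest interaction p per direction, whether or not the study's tables print them. In each list the 3 members with the lowest p were added, from 1 CPM up. Other genes were named for their known roles, after their values were seen. The members and the 45 gene lists were chosen with earlier results of these data known. The files hold no comparison columns of the authors, and the other 14 libraries were not used here.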

Additional observations from a re-analysis of the deposited data

Results flagged for a closer look

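In 5 of 43 groups of dermis values looked at, 1 of the 5 center dermis libraries stood apart from the other 4 by its gap relative to the range, where chance alone gives about 1 in 20. The high values were 26.96 CPM for Slpi, 1.166 CPM for Dynap, 2.128 CPM for Erv3, 2.769 CPM for Lce1l and a summed 325.6 CPM for the neutrophil list. Slpi and Dynap were still below both center epidermis libraries.

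For 12 of 33 named genes the center-margin contrast of epidermis differed from that of dermis, by the interaction term with an FDR under 0.05. Over all genes 3.23% passed. Named genes were chosen by their epidermal contrast, and some by the interaction p, and the interaction reuses that contrast. The count is therefore not independent of the choice of genes. Among genes that were higher in the epidermal center the differences on the log2 scale were 8.83 for Cadm4, 7.20 for Gfpt2, 4.84 for Hs3st1, 3.85 for Kdelr3, 4.51 for Oaf and 14.52 for Tmem45b. Among genes that were lower there, they were 11.81 for Flg2, 10.35 for Krt77, 9.73 for Lce1e, 7.85 for Lce1j, 7.46 for Lce1k and -2.11 for Hspa12a. Flg2, Krt77, Lce1e, Lce1k and Tmem45b were at 0 in all 5 center dermis libraries, so that the size of their fitted differences depends on the prior count and only the direction can be read. Without center dermis libraries 3 to 5 the differences of Krt77, Lce1j and Lce1k had FDRs of 0.0848, 0.0976 and 0.0632, and the other 9 kept an FDR under 0.05.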

How the results depend on the processing

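All 2056 values of the 140 named genes over the alternatives kept their direction, and the 176 genes kept theirs wherever they were tested, except 1 of 161 after dermal subtraction. The number past an FDR of 0.05 depended on the test: 1511 (914 higher, 597 lower) by DESeq2, 1533 (977 and 556) by the likelihood ratio test, 1374 (865 and 509) by the exact test of edgeR and 0 (0 and 0) by the quasi-likelihood estimate of edgeR 3, so that none of the 51 named genes past the threshold held it under every alternative. After dermal subtraction 94 were called, 59 of them higher, and 82 were higher when center dermis libraries 3 to 5, left out after seeing the data, did not enter the subtracted profile (132 in all), in 1 fit with dermis 656, 580 of them higher, and with length and GC offsets 91 were lower. Leaving out 1 library gave 70 to 7405 calls, 61 to 4000 higher and 9 to 3405 lower. It was 100 without center library 1, 70 without center library 2, 5508 without margin library 1 and 7405 without margin library 2, where the spread is by construction that of the center pair and the lone margin library is assumed to vary like it. At an unadjusted p under 0.05 these ranges were 1052 to 8215, 740 to 4459 higher and 312 to 3756 lower, and in 1 fit with dermis 663 were lower. For the difference between tissues DESeq2 called 805 (145 more negative), RLE scaling 37 more negative, and a minimum of 10 counts in every library 103, 83 of them more positive. Leaving out 1 library gave 265 to 645 in all, 263 to 603 more positive and 2 to 42 more negative. By the endothelial list the dermal share was 2.52%, 2.20%, 0.6003% and 0.0674%. Except where the alternative's construction shows it, the cause was not tested. No paired analysis was possible because replicate numbers of center and margin were given in accession order and pair no samples. With 2 libraries a group, small differences could not be detected at this spread.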
